A study of Mus musculus with 20 samples.

Results

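LSK cells are the lineage-negative, cKit-positive and Sca1-positive fraction of mouse bone marrow, which holds haematopoietic stem cells and multipotent progenitors. The comparison described here sets LSK cells that carried 1 Idh2R140Q allele against wild-type LSK cells. Its members were the 4 Idh2R140Q and the 4 wild-type (WT) libraries of an RNA-seq study with 20 libraries in 5 groups. Of the 46078 genes in the deposited table, 13992 (30.4%) had a mean of at least 1 TPM over these 8 libraries and were tested. TPM is a read count corrected for gene length and scaled to the same total in every library. Each library came from a pool of 2 C57Bl/6J mice aged 3 to 4 months. WT mice had the genotype +/+;Vav-Cre and the mutants Idh2LSL-R140Q/+;Vav-Cre, so that both groups carried the recombinase. Vav-Cre acts in blood-forming cells and removes the LSL (lox-stop-lox) block there, and the second Idh2 allele of the mutants was normal. The Idh2R172K (Idh2LSL-R172K/+;Vav-Cre), Idh1R132H (Idh1LSL-R132H/+;Vav-Cre) and Tet2KO (Tet2-/-, no Cre named) groups, 4 libraries each, entered the same statistical fit and are shown beside the results. The labels do not say whether the pools were prepared on separate days, so that p-values measure the spread between pools only.

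IDH2 is the mitochondrial enzyme that turns isocitrate into 2-oxoglutarate, and IDH1 does the same in the cytosol. Substitutions of an arginine in the active site, recurrent in acute myeloid leukaemia, make the enzymes produce 2-hydroxyglutarate. That metabolite inhibits enzymes that use 2-oxoglutarate, among them the TET proteins, which oxidise methylated DNA, and the JmjC histone demethylases.

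The deposited values are sums over a gene, so they do not show which allele a transcript came from, and the labelled mutation could not be checked in them. Idh2 itself (chr7:80094846-80115392) showed no detectable difference between the groups. Its TPM was 470, 485, 516 and 647 in the WT libraries and 496, 474, 554 and 621 in the Idh2R140Q libraries. The groups overlapped over almost their whole range. The difference was 0.02 on the log2(TPM + 1) scale, with a 95% interval of -0.21 to 0.25. In Idh2R172K the level was 887 to 1024, above all 8 of these libraries. The direct difference between the alleles was 0.81 ± 0.11 (SE), with an adjusted p of 4.1e-05 (limma, Benjamini-Hochberg). Idh1 stood at 74.3 to 102 in WT and 83.2 to 120 in Idh2R140Q.

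The 8 libraries held 36.95 to 45.04 M assigned reads, recovered from the TPM steps. Genes that define the sort were present in all of them, with Kit at 335 to 487 and Ly6a, which encodes Sca1, at 143 to 190 TPM. Some defining genes of mature B cells (Pax5, Ms4a1), T cells (Cd3d, Cd3e, Cd3g) and stroma (Cxcl12, Lepr, Col1a1) stayed under 1 TPM in all 8. Other marker genes were present. Over the 8 libraries the summed level was 752 to 1021 TPM for T and NK markers and 191 to 266 for stroma and endothelium. It was 214 to 340 TPM for macrophage, 73.8 to 359 for eosinophil and 2953 to 11312 for plasma cell markers. Which cells this RNA came from was not tested. The libraries numbered 4 stood apart from the others of their group. The root mean square difference in log2(TPM + 1) between 2 WT libraries was 0.482 to 0.510 among numbers 1 to 3 and 0.618 to 0.638 with number 4. Between WT and Idh2R140Q libraries numbered 1 to 3 it was 0.437 to 0.544, which overlaps the range within WT. Where 1 of the 2 libraries was a number 4, it was 0.585 to 0.786 between the groups and 0.620 to 0.701 within Idh2R140Q. In both groups, numbers 1 and 3 had almost no Y-linked RNA and numbers 2 and 4 had it. Tet2KO library 2 also stood apart (Kit at 97.9 TPM against 334 to 456 in the other Tet2KO libraries), and leaving it out raised the number of genes at an unadjusted p under 0.05 given below from 409 to 658.

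No tested gene passed the test between Idh2R140Q and WT. Of 13992 genes, 0 (0.0%) had an adjusted p under 0.05 in limma on log2(TPM + 1), and the smallest adjusted p was 0.847. Unadjusted p-values were under 0.05 for 409 genes (2.92%), of which 316 (2.26%) were higher and 93 (0.665%) lower in Idh2R140Q. Limma-voom on rebuilt read counts also called 0 genes and had 444 at an unadjusted p under 0.05. The 4 Idh2R140Q libraries lay all above the 4 WT libraries for 218 genes (1.56%) and all below for 63 (0.45%). The largest differences were mostly in genes not annotated as protein coding. Among the genes with a difference of at least 1 on the log2 scale (1.23% of all), 6 were protein coding (3.49%). An unadjusted p under 0.05 in limma was reached by 184 of 11424 protein-coding genes (1.61%). Of the 2568 other tested genes, whether of another annotated type or of none, 225 reached it (8.76%).

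The data bound how large a difference could be. The 95% interval lay inside -1 to 1 for 12600 genes (90.1%), and inside -0.5 to 0.5 for 6625 (47.3%). A difference of 1 on this scale was thus outside the interval for most genes. For the genes not in the second count a difference of 0.5 in at least 1 direction was within it. On the log2(TPM + 1) scale a 2-fold change in TPM gives a difference under 1, most so for low genes. Of the tested genes 5124 had a mean of 1 to 10 TPM, and for these an interval inside -1 to 1 can still hold a 2-fold change. The differences were not centred on 0. Of all genes 10005 (71.5%) were above 0, with a median of 0.08, and this depended on the level. The median was 0.13 for genes of 1 to 10 TPM and -0.04 for genes of 200 TPM and more, of which 35.1% were above 0. With median-of-ratios scaling the median of all genes was 0.0012, and without WT library 4 it was 0.15. A difference in either direction is therefore read below against 71.5% and 0.08.

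**Figure D1:**
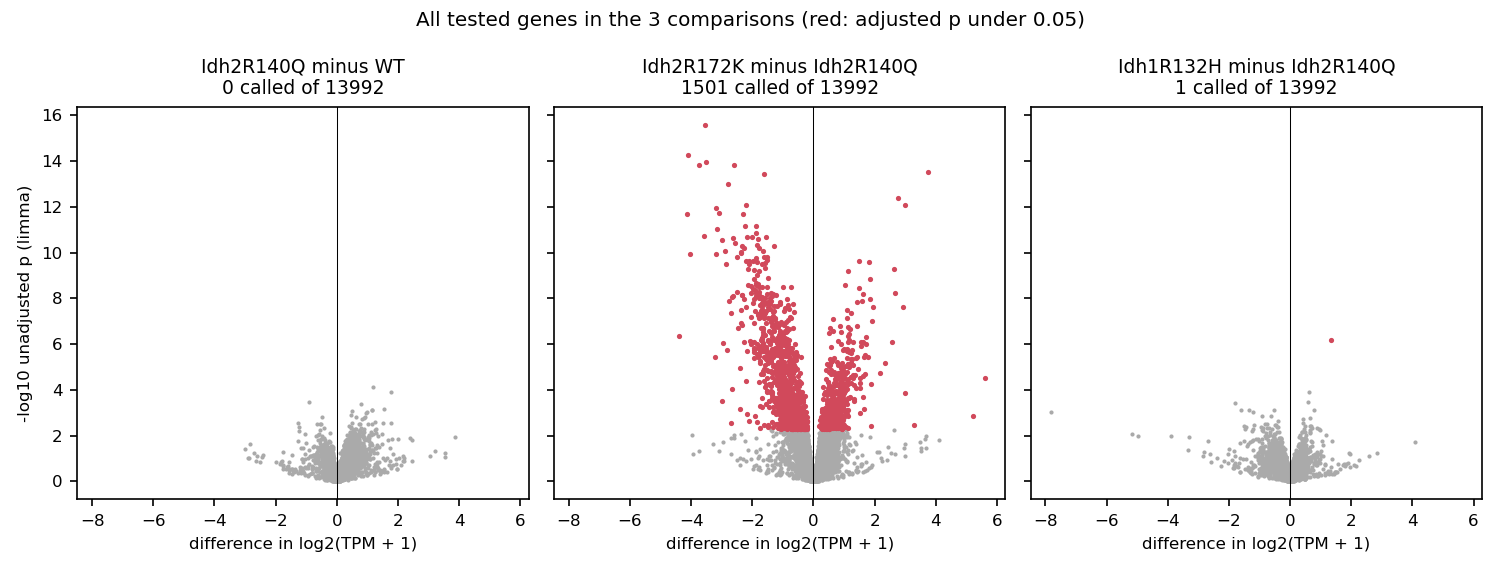
Difference in log2(TPM + 1) (horizontal) and -log10 of the unadjusted limma p (vertical) for 13992 genes in 3 comparisons, each point a gene, red where the adjusted p is under 0.05. The panel of Idh2R140Q against WT holds 0 red points, that of Idh2R172K against Idh2R140Q 1501, and that of Idh1R132H against Idh2R140Q 1.

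Among genes whose libraries did not overlap, the 8 with the smallest p in each direction are described as values. None was called, each with an adjusted p of 0.998 (limma, Benjamini-Hochberg). Slc35d3, a nucleotide sugar transporter needed for platelet dense granules, was at 10.2, 7.55, 10.7 and 10.3 TPM in WT and at 23.3, 12.5, 13.8 and 25.6 in Idh2R140Q. Libraries 1 and 4 of Idh2R140Q were the highest, and the lowest mutant library was above every WT library. The difference was 0.84 (95% interval 0.35 to 1.32, unadjusted p = 0.00193).

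Hmga2, a chromatin protein active in fetal stem cells, was at 2.83, 3.07, 3.50 and 3.69 TPM in WT and 8.52, 4.24, 5.00 and 6.83 in Idh2R140Q. The groups did not overlap, and library 1 was the highest. The difference was 0.71 (0.27 to 1.15). The other groups stood at a mean of 5.74 (Idh1R132H), 11.6 (Idh2R172K) and 11.9 TPM (Tet2KO). Mmp2, the secreted protease gelatinase A, was at 24.1, 26.9, 23.4 and 28.8 TPM in WT and 45.3, 33.2, 32.9 and 45.2 in Idh2R140Q. Here too libraries 1 and 4 of Idh2R140Q were the higher pair. The mean was 85.4 TPM in Idh2R172K, and Idh2R172K was above Idh2R140Q by 1.11 ± 0.19 (SE, adjusted p = 0.000513 in limma). Scube3, a secreted signalling protein, was at 1.11 to 1.57 TPM in WT, 2.21 to 4.74 in Idh2R140Q and 7.06 to 18.7 in Idh2R172K. The step from Idh2R140Q to Idh2R172K was 1.46 ± 0.25 (adjusted p = 0.00039 in limma).

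Ahnak, a very large scaffold protein, was at 1.67 to 2.32 TPM in WT and 2.66 to 3.67 in Idh2R140Q. Zfp934, a zinc finger gene, was at 8.496 to 11.4 and 11.9 to 14.5, and Vasn, a membrane protein that binds TGF-beta, at 1.11 to 2.40 and 2.80 to 3.90. These 3 differences were 0.45, 0.39 and 0.54.

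Nnt encodes the mitochondrial transhydrogenase that makes NADPH from NADH, and the C57BL/6J substrain is known to carry a deletion inside the gene. Its TPM was 50.4, 38.4, 39.4 and 44.7 in WT and 68.4, 75.5, 57.7 and 59.99 in Idh2R140Q. All 4 Idh2R140Q libraries were above the other 16 libraries of the study, of which the highest was at 54.8. The difference from WT was 0.59 (0.20 to 0.97, unadjusted p = 0.00494) and did not pass the adjusted test. Idh2R172K was below Idh2R140Q by 0.61 on the log2 scale (-0.61 ± 0.18, adjusted p = 0.0371 in limma), while against Idh1R132H (39.8 to 51.1 TPM) the difference of -0.54 was not called. Gene-level TPM do not show which exons of Nnt the reads came from, and the share of an intact Nnt allele in these pools was not tested.

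The 8 genes with all Idh2R140Q libraries below WT had differences from -0.67 to -0.17. Snx31, a sorting nexin, was at 4.75, 4.80, 5.27 and 5.79 TPM in WT and 3.22, 3.96, 3.40 and 4.05 in Idh2R140Q. All mutant libraries were lower, and Idh2R172K was lower still at 0.770 to 1.48, a difference between the alleles of -1.19 ± 0.13 (adjusted p = 2.4e-06 in limma). Il22ra2, the soluble receptor that binds IL-22, was at 2.62 to 3.52 TPM in WT, 1.61 to 2.45 in Idh2R140Q and 0.361 to 0.690 in Idh2R172K. Tcam1, a cell adhesion gene, was at 11.7 to 14.2 and 7.86 to 10.1 TPM in WT and Idh2R140Q, and the non-coding Platr27 at 2.62 to 3.77 and 0.984 to 2.18. The other 4 are abundant genes with close groups. Chchd6, of the complex that shapes mitochondrial cristae, was at 113 to 126 TPM in WT and 94.0 to 107 in Idh2R140Q. Syce2 stood at 105 to 117 and 92.8 to 101, Eny2, a subunit of the SAGA coactivator, at 66.1 to 70.1 and 58.4 to 64.3, and Gtf2a2, a subunit of TFIIA, at 47.6 to 54.0 and 41.3 to 46.8.

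**Figure D2:**
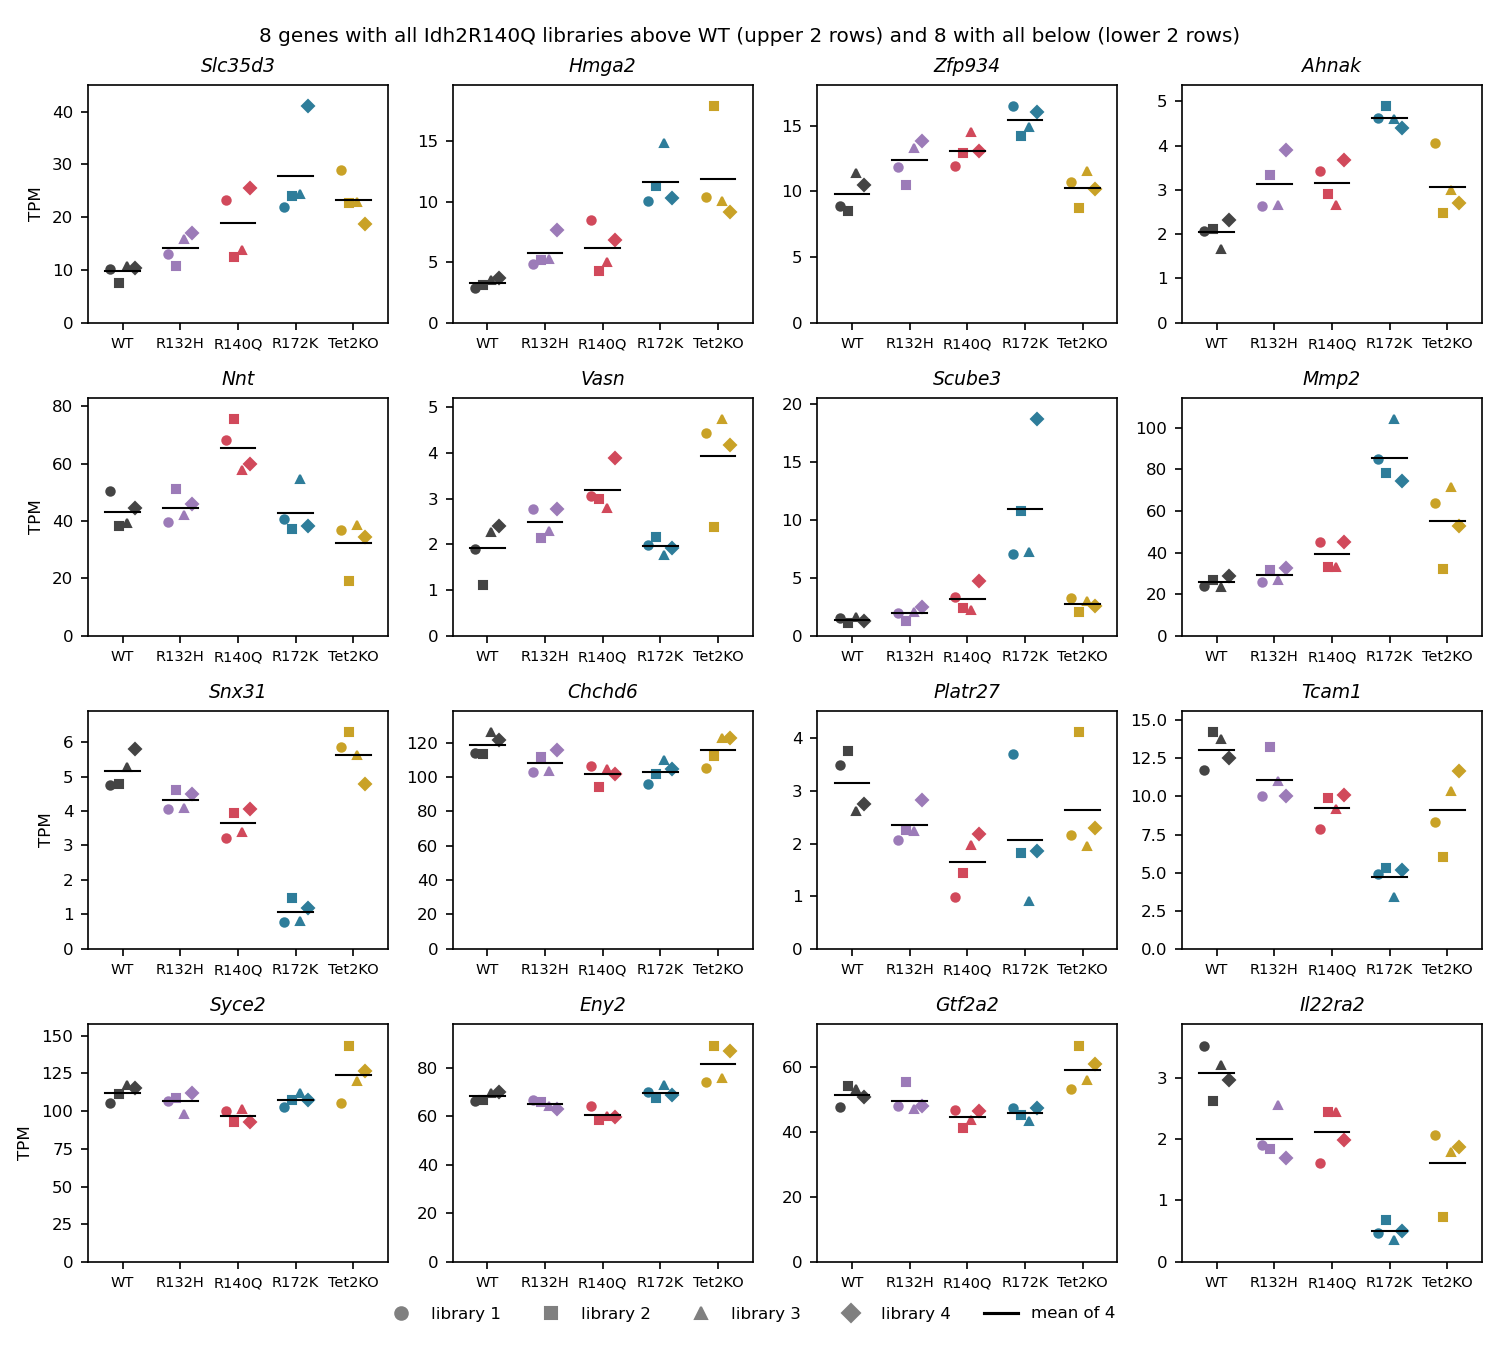
TPM in each of the 20 libraries (points, marker by library number) with the mean of each group of 4 (line), for the 8 genes with all Idh2R140Q libraries above WT and the 8 with all below; each panel has its own axis from 0. Nnt is the highest in Idh2R140Q, at 57.7 to 75.5 TPM, and Scube3 and Mmp2 are highest in Idh2R172K.

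Genes near Idh2 were examined as the neighbourhood of the targeted allele. Within 1 Mb of Idh2, 32 genes were tested, of which 22 were above 0 with a median of 0.16, and 2 (6.25%) had an unadjusted p under 0.05. Within 5 Mb there were 63, with 44 above 0, a median of 0.12 and 3 at an unadjusted p under 0.05 (4.76%). The shares above 0 were close to the 71.5% of all genes. The median of all genes was 0.08, and 2.92% of them had an unadjusted p under 0.05. Zfp710, 0.673 kb from Idh2, differed by 0.43 (unadjusted p = 0.0551 in limma).

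Hapln3, which encodes a link protein of hyaluronan and proteoglycans, lies at chr7:79115102-79131018, 964 kb from Idh2, and fell under the limit of 1 TPM. It was singled out after its values were seen. Its TPM was 0.171, 0.0973, 0.104 and 0.128 in WT and 1.08, 1.46, 2.19 and 1.34 in Idh2R140Q. In whole reads, these values were 3, 2, 2 and 2 in WT and 20, 30, 38 and 21 in Idh2R140Q. In Idh2R172K it was at 0.814, 0.687, 0.515 and 0.585 TPM, or 16, 12, 9 and 10 reads. All 8 libraries with an altered Idh2 allele were above the 12 others, in which Idh1R132H held 1 read in all and Tet2KO 4.

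In a fit of all 30645 genes with any value, Hapln3 and the pseudogene Gm14248 were the 2 genes called between Idh2R140Q and WT. The difference of Hapln3 was 1.15 ± 0.09 (SE), with an adjusted p of 2.4e-05 (limma, Benjamini-Hochberg). It kept an adjusted p of at most 0.000285 when any 1 of the 8 libraries was left out. In a limma fit of the 2 groups alone the adjusted p was 0.136. The SD of Hapln3 TPM was 0.475 in Idh2R140Q. In WT, Idh1R132H, Idh2R172K and Tet2KO it was 0.033, 0.026, 0.130 and 0.052. Fits with all 5 groups, also those with 1 library left out, share 1 spread per gene, which holds these small values. Idh2R172K was above WT by 0.55 ± 0.09 (adjusted p = 0.000875) and below Idh2R140Q by 0.60 on the log2 scale (-0.60 ± 0.09, adjusted p = 0.000489), both in the limma fit with no filter. Gm14248 was at 0.128 to 0.336 TPM in WT, or 2, 1, 1 and 2 reads, and is listed at 0 in the 16 other libraries. Its call thus rests on very few reads. Of the 55 genes with any value within 1 Mb of Idh2, 2 had an unadjusted p under 0.05, beside 1114 of all 30645. Whether chromosome 7 around Idh2 differs in sequence between the groups was not tested.

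Hddc3, an HD-domain hydrolase, lies at chr7:80343104-80350547, 228 kb from Idh2 on the other side. Its TPM was 18.0, 21.6, 17.0 and 22.6 in WT and 20.2, 32.8, 56.2 and 61.2 in Idh2R140Q. Library 1 of Idh2R140Q lay within the WT range, and the other 3 were above all 16 libraries of the other groups, which reached 30.3. The difference was 0.95 (0.44 to 1.46), with an adjusted p of 0.998 in limma, and 1.26 with an adjusted p of 0.0523 without Idh2R140Q library 1. Idh2R172K stood at 19.2 to 30.3 TPM. Ap3s2, a subunit of the AP-3 adaptor 174 kb from Idh2, was at 36.9 to 42.5 TPM in WT and 32.9 to 36.1 in Idh2R140Q, with no overlap and a difference of -0.21 (adjusted p = 0.998 in limma). The small RNA gene Gm24224, at 2.90 to 5.05 and 0.960 to 3.90 TPM, was the other gene within 1 Mb at an unadjusted p under 0.05.

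**Figure D3:**
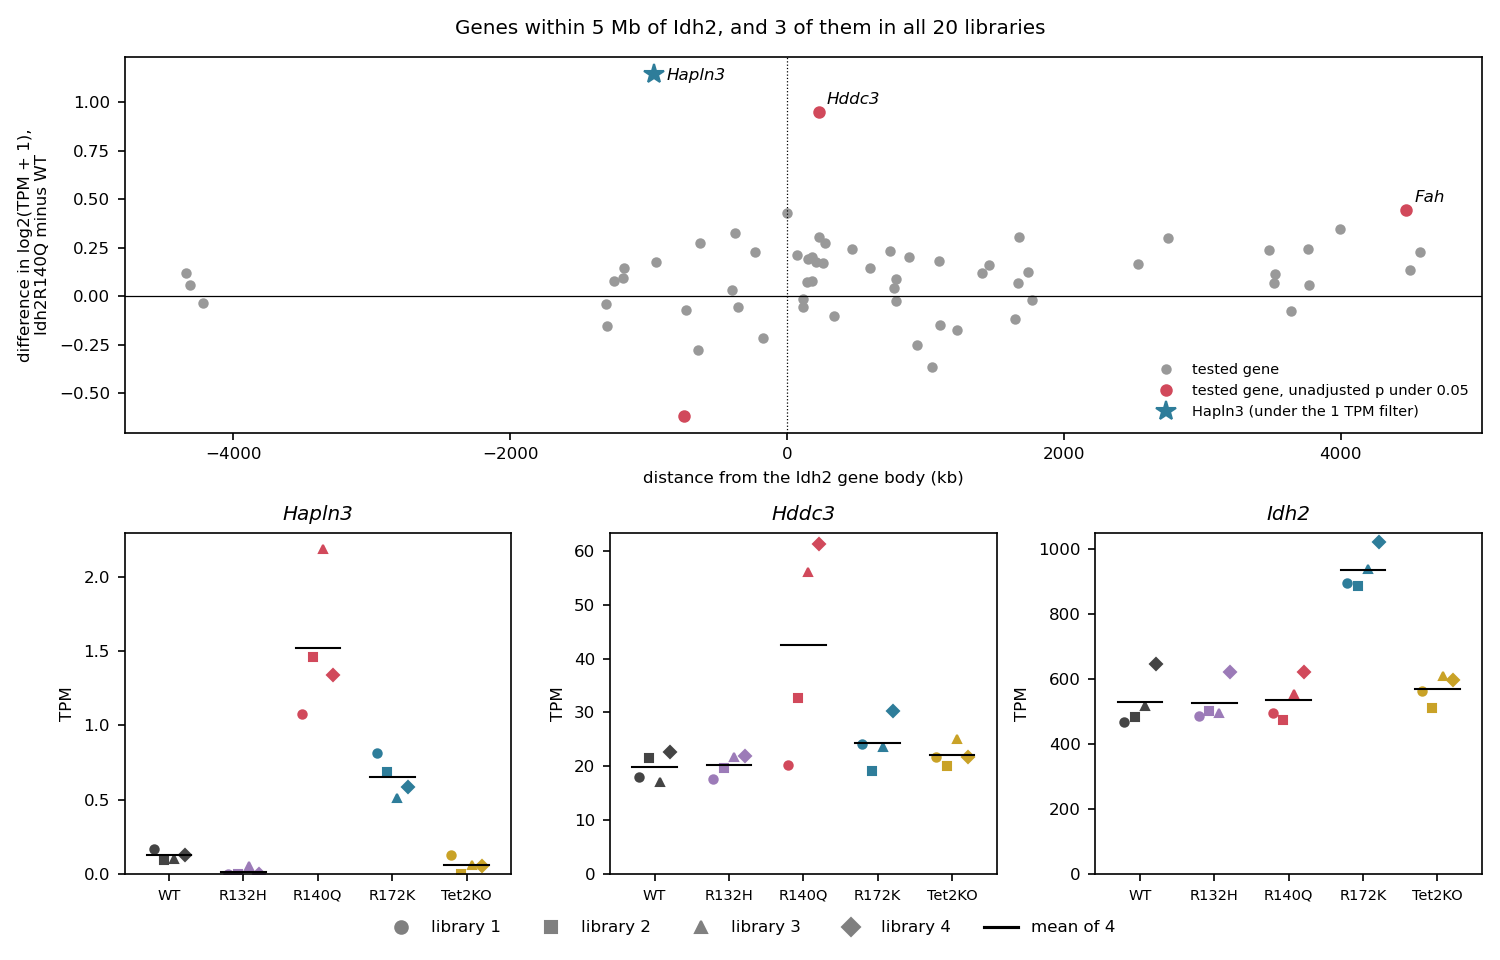
Upper panel: difference in log2(TPM + 1) between Idh2R140Q and WT against the distance in kb from Idh2, for the 63 tested genes within 5 Mb (points) and Hapln3 (star, from the fit with no filter). Lower panels: TPM of Hapln3, Hddc3 and Idh2 in each library, with group means as lines; Hapln3 is above 0.5 TPM in the 8 Idh2R140Q and Idh2R172K libraries only, and Hddc3 is high in 3 of 4 Idh2R140Q libraries.

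The enzymes around the mutant protein were read from lists of genes. In no list below was a member called between Idh2R140Q and WT, against 0.0% of all genes. Of the isocitrate dehydrogenases and the enzymes that make or clear 2-hydroxyglutarate, 8 were tested and 4 were above 0, with a median of 0.00 and a range of -0.10 to 0.10. D2hgdh, which oxidises the D form of 2-hydroxyglutarate, was at 17.1 to 32.2 TPM in WT and 22.1 to 27.7 in Idh2R140Q. Phgdh, of serine synthesis, was at 466 to 525 and 441 to 506. All 8 intervals lay inside -1 to 1. With median-of-ratios scaling 2 were above 0 (median -0.08). In the tricarboxylic acid cycle and glutamate metabolism, 14 of 26 genes were above 0 with a median of 0.01, and the 26 intervals lay inside -1 to 1. Under median-of-ratios scaling 4 of the 26 were above 0, with a median of -0.08, and under quantile normalization 13 (-0.01). Suclg1, a subunit of succinyl-CoA ligase, did not overlap between the groups, at 112 to 118 TPM in WT and 98.3 to 111 in Idh2R140Q.

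No TET, DNA methyltransferase or other dioxygenase gene passed the test. Tet2, an enzyme that oxidises 5-methylcytosine, was at 7.22, 6.67, 6.89 and 9.23 TPM in WT and 8.14, 9.91, 8.32 and 13.4 in Idh2R140Q. Library 4 was the highest of each group, and the groups overlapped. The difference was 0.35 (-0.06 to 0.76). Tet1 and Tet3 differed by 0.23 and 0.21, and the DNA methyltransferase Dnmt3a, at 19.0 to 22.3 and 21.6 to 30.0 TPM, by 0.25. Of 8 TET and DNA methyltransferase genes 5 were above 0, with a median of 0.22, while Dnmt1, Uhrf1 and Tdg lay between -0.03 and -0.02. Of 28 other dioxygenases that use 2-oxoglutarate 25 were above 0, with a median of 0.16 that fell to 0.08 under median-of-ratios scaling (23 above 0) and to 0.06 under quantile normalization (21 above 0). The members with the smallest p were Kdm7a, a histone demethylase, at 5.04 to 6.65 and 6.12 to 10.7 TPM, and P4ha1, a collagen prolyl hydroxylase, at 26.3 to 38.9 and 33.3 to 42.1. HIF targets and glycolysis genes, which prolyl hydroxylases restrain, had 6 of 21 above 0 with a median of -0.05. Hk2, the hexokinase, was at 18.6 to 22.6 TPM in WT and 23.4 to 27.9 in Idh2R140Q with no overlap, and Ldha, lactate dehydrogenase, at 1230 to 1510 and 1100 to 1472, with overlap.

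Genes of the blood lineages that LSK cells start to express are called priming genes. In bulk RNA, fewer cells of a type and less RNA per cell cannot be told apart. Lymphoid priming genes were all on one side. All 20 tested members were above 0, against 71.5% of all genes, with a median of 0.27 (0.18 to 0.40 when 1 library was left out). With median-of-ratios scaling 19 were above 0 with a median of 0.19. None of the 20 was called, and 3 had an unadjusted p under 0.05, beside 2.92% of all genes. Il7r, the receptor for interleukin 7, was at 8.69, 11.3, 11.4 and 16.4 TPM in WT and 21.4, 10.6, 15.0 and 21.7 in Idh2R140Q. Library 2 of Idh2R140Q lay within the WT range, and the difference was 0.47 (0.03 to 0.92). Ccr7, a homing receptor, was at 7.62 to 14.9 and 13.2 to 17.6 TPM, and Rag2, of the V(D)J recombinase, at 7.38 to 12.0 and 9.40 to 14.9. Satb1, a chromatin organiser of lymphoid cells, stood at 15.6 to 21.4 and 20.1 to 36.3, Dntt, the terminal transferase, at 705 to 1092 and 899 to 1243, and Flt3 at 219 to 346 and 229 to 421. The mean log2(TPM + 1) of the list was 5.61, 5.90, 5.81 and 6.12 in WT and 6.18, 6.09, 5.93 and 6.38 in Idh2R140Q. Library 4 was the highest in each group, and the groups overlapped, while each Idh2R140Q library was above the WT library of the same number. The numbers were not taken as pairs. Among B lineage markers, 5 of 6 tested were above 0 with a median of 0.47, their summed level was 92.8 to 108 TPM in WT and 94.7 to 114 in Idh2R140Q, and Pax5, Ms4a1, Ebf1 and Cd22 were under 1 TPM in all 8. Among T and NK markers, 4 of 5 tested were above 0 with a median of 0.28 (0.21 to 0.38 when 1 library was left out). Their mean log2(TPM + 1) was 4.08 to 4.56 in WT and 4.43 to 4.72 in Idh2R140Q, while their summed level was 798 to 1021 TPM and 752 to 941, and Cd3d, Cd3e, Cd3g and Cd8a were under 1 TPM in all 8. The part of B, T and NK lineage cells in the lymphoid values was not tested.

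Granulocyte-monocyte priming genes lay on the other side, with 7 of 24 above 0 and a median of -0.09. The sign of this median rested on the libraries, since it ran from -0.21 to 0.01 when 1 was left out and was 0.03 without the libraries numbered 4. Trem3, a receptor of myeloid cells, was at 34.6, 19.3, 35.4 and 25.7 TPM in WT and 14.3, 20.1, 33.0 and 12.99 in Idh2R140Q, and the groups overlapped. Ctsg, a granule protease, was at 762 to 1065 and 662 to 1199, and Mpo, myeloperoxidase, at 2573 to 4042 and 2599 to 5392. Library 3 of Idh2R140Q was the highest of the 8 for Ctsg and Mpo. In the erythroid list 11 of 23 were above 0 (median -0.02). Klf1 and Gata1, the factors that drive red cell genes, were at 48.2 to 63.2 and 41.4 to 52.9 TPM in WT and 45.6 to 56.5 and 41.5 to 52.8 in Idh2R140Q. In the megakaryocyte list 13 of 20 were above 0 (median 0.06), and 9 with median-of-ratios scaling (-0.02), with Itga2b at 90.9 to 133 and 75.5 to 124. Stem cell genes had 24 of 28 above 0 (median 0.13), but 15 of 28 with median-of-ratios scaling. Hlf was at 65.4 to 78.3 TPM in WT and 59.98 to 122 in Idh2R140Q, and Procr at 17.6 to 39.1 and 18.5 to 52.2. The groups overlapped for both genes.

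Transcription factors of blood cells and leukaemia had 38 of 41 above 0 with a median of 0.16, and 29 with a median of 0.07 under median-of-ratios scaling. The summed level of the list was 3436.5 to 4479 TPM in WT and 3701.5 to 4797 in Idh2R140Q, so the groups overlapped. Besides Hmga2, the members at an unadjusted p under 0.05 were Runx1 and Zbtb16, in all 3 of 41, beside 2.92% of all genes. Runx1, required for the emergence of blood stem cells, was at 41.0, 36.7, 44.4 and 41.1 TPM in WT and 48.3, 53.5, 50.6 and 54.1 in Idh2R140Q. The groups did not overlap, and the difference was 0.33 (0.09 to 0.57, adjusted p = 0.998 in limma). Zbtb16, the PLZF repressor, was at 4.73 to 6.42 and 6.92 to 10.0 TPM, also with no overlap. Of the 41 members, 4 had all Idh2R140Q libraries above WT, against 1.56% of all genes.

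**Figure D4:**
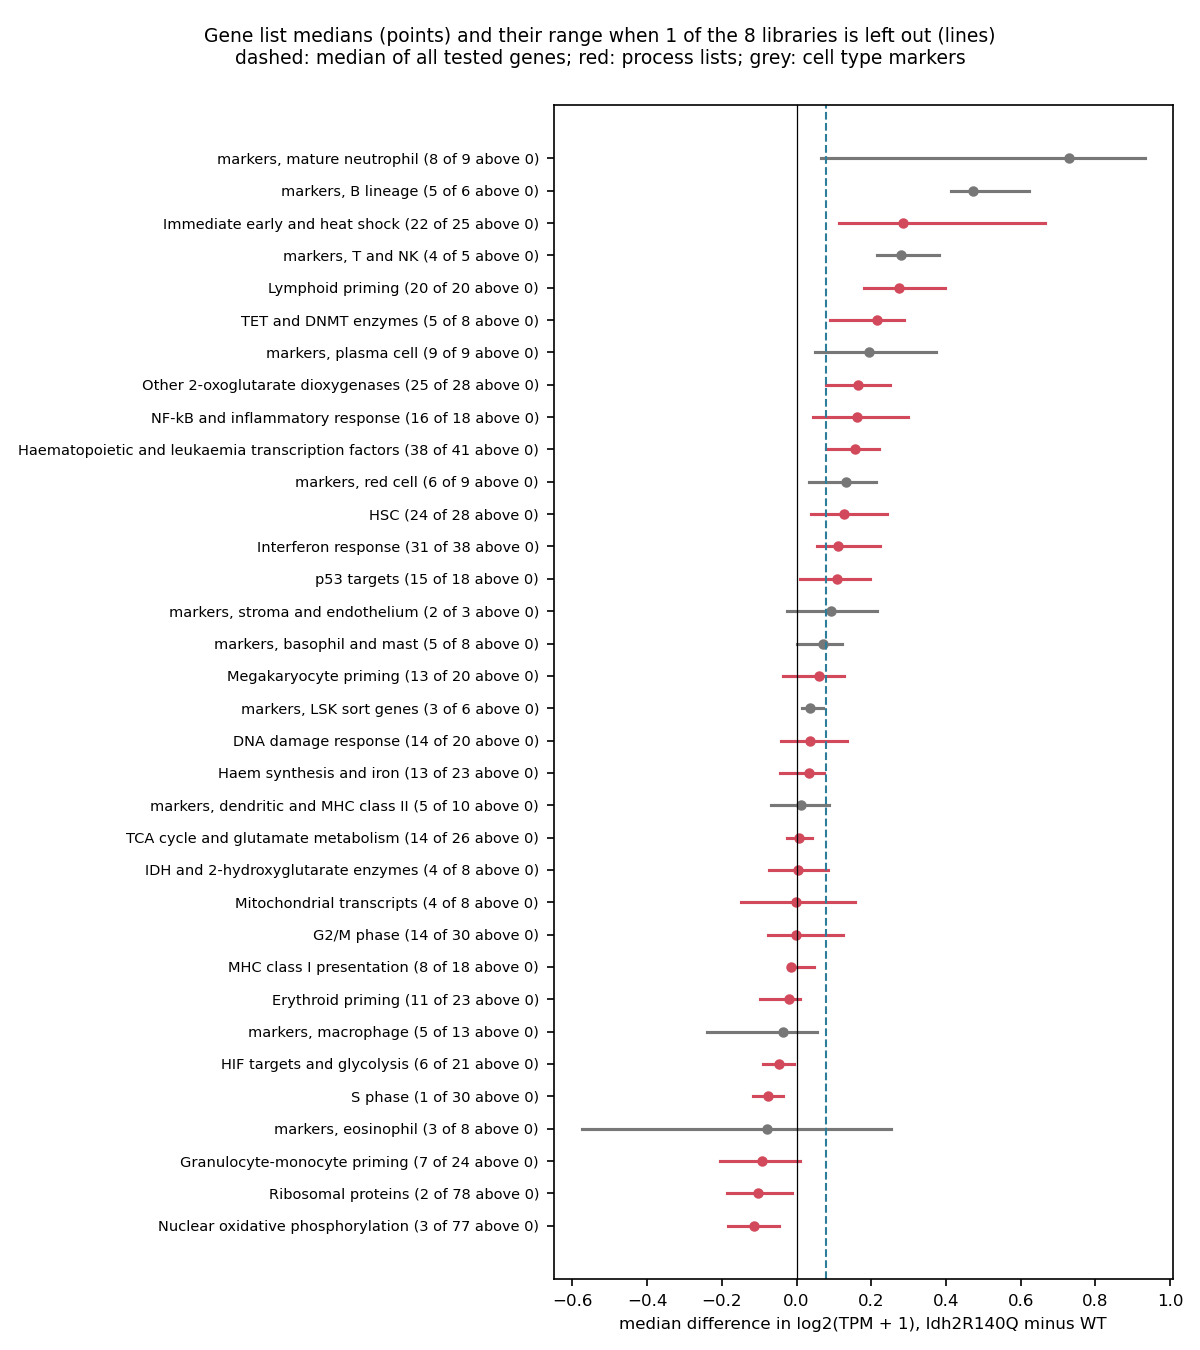
Median difference in log2(TPM + 1) between Idh2R140Q and WT for 34 gene lists (points), with the range of the median when each of the 8 libraries is left out in turn (lines), 0 (solid) and the median of all tested genes, 0.08 (dashed). Lymphoid priming lies above the dashed line over its whole range. So do TET and DNA methyltransferase genes, other dioxygenases, transcription factors, immediate early and heat shock genes, and B lineage and T and NK markers. Ribosomal protein, nuclear oxidative phosphorylation, S phase, and HIF target and glycolysis genes lie below 0 over theirs. The dashed median, drawn for all 8 libraries, was itself 0.01 to 0.15 when 1 was left out.

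Abundant housekeeping lists lay slightly below 0. Of 78 ribosomal protein genes 2 were above 0 (median -0.10), and of 77 nuclear genes of oxidative phosphorylation 3 (median -0.11), beside 35.1% of all genes with 200 TPM and more. The summed levels of both lists overlapped between the groups. They were 50775 to 66209 TPM in WT and 45913 to 62857 in Idh2R140Q for ribosomal proteins. For oxidative phosphorylation they were 23068 to 27800 and 20775 to 26352. Rpl38 was at 733, 787, 714 and 489 TPM in WT and 623, 616, 606 and 417 in Idh2R140Q, with library 4 the lowest of each group. Uqcr10, a subunit of respiratory complex III, was at 485 to 544 and 390 to 500. With quantile normalization 9 ribosomal and 4 oxidative phosphorylation genes were above 0. Replication genes of S phase had 1 of 30 above 0 (median -0.08). Their summed level was 5765 to 6871 TPM in WT and 5460 to 6551 in Idh2R140Q, with overlap. The median level of this list was 138 TPM, and of all genes of 50 to 200 TPM 64.9% were above 0 (median 0.04). Gins1, of the replicative helicase, was at 61.2 to 68.6 TPM in WT and 46.9 to 64.0 in Idh2R140Q, a difference of -0.25 (-0.45 to -0.05). Genes of G2 and M phase had 14 of 30 above 0 with a median of 0.00, and 4 under median-of-ratios scaling (-0.09), and Mki67 was at 64.9 to 84.7 and 76.9 to 102. In these 4 lists the interval of every tested member (78, 77, 30 and 30) lay inside -1 to 1.

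Immediate early and heat shock genes, which respond within minutes to stress, differed widely between libraries of the same group. Fos was at 38.2, 17.7, 13.4 and 361 TPM in WT and 81.5, 69.5, 44.2 and 488 in Idh2R140Q. Library 4 was far above the others in each group, and among numbers 1 to 3 every Idh2R140Q library was above every WT library. The difference was 1.27 with a 95% interval of -0.88 to 3.41, and 22 of 25 members of the list were above 0 (median 0.29, 0.11 to 0.67 when 1 library was left out, 0.34 without the libraries numbered 4). Egr1, at 13.8, 11.3, 10.5 and 61.3 TPM and at 37.0, 38.1, 17.4 and 78.5, was also highest in library 4 of each group. Btg2 was at 40.5 to 94.1 and 57.8 to 99.7. The part of handling before lysis in these values was not tested. Among p53 targets, 15 of 18 were above 0 (median 0.11). With median-of-ratios scaling 11 were above 0 (median 0.03), and with quantile normalization 8 (median -0.0076). The member Ddit4, an inhibitor of mTORC1, was at 12.7 to 23.1 and 22.3 to 45.3 TPM (difference 0.67, 0.17 to 1.17).

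Markers of mature neutrophils set 1 library apart. Their mean log2(TPM + 1) was 1.78 to 3.05 in WT, 2.33 to 2.55 in Idh2R140Q libraries 1, 2 and 4, and 4.69 in library 3. Their summed level was 395 TPM in that library and 40.1 to 108 in the other 7. Ngp, a neutrophil granule protein, was at 61.9 TPM there and at 1.37 to 11.7 in the others. The median of the list was 0.73 with all libraries and 0.07 to 0.93 when 1 was left out. Plasma cell markers had 9 of 9 above 0 (median 0.19), and 7 with median-of-ratios scaling (0.11). The summed level of this list was 4227 to 6157 TPM in WT and 5197, 11312, 2953 and 4843 in Idh2R140Q. Library 2 of Idh2R140Q was above every WT library and library 3 below every one, while libraries 1 and 4 lay within the WT range. Sdc1, syndecan 1, was at 18.5 to 25.0 TPM in WT and 28.9 to 35.8 in Idh2R140Q. The immunoglobulin gene Ighg2c ranged from 0.492 to 26.8 and from 22.9 to 74.3.

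**Figure D5:**
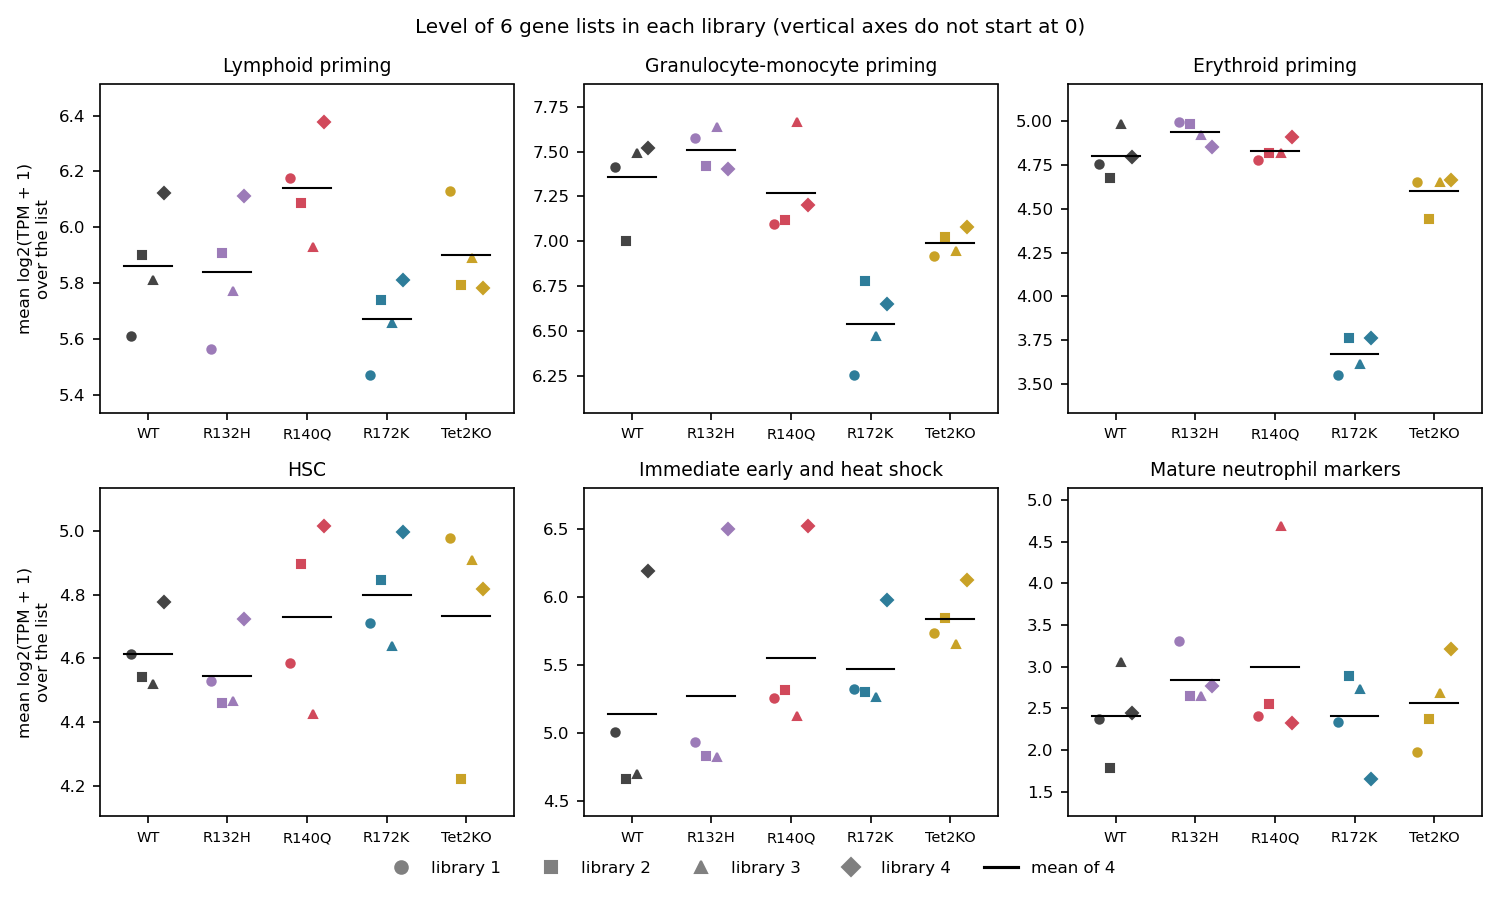
Mean log2(TPM + 1) over the tested members of 6 gene lists in each library (points, marker by library number) with group means (lines), in all 5 groups; axes do not start at 0. Erythroid priming genes are at 4.78 to 4.91 in Idh2R140Q, inside the WT range of 4.68 to 4.99, and library 3 of Idh2R140Q stands out for the neutrophil markers.

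The other allele of the same gene gave a different picture. Between Idh2R172K and Idh2R140Q 1501 of the same 13992 genes (10.7%) were called, 504 higher (3.6%) and 997 lower (7.13%) in Idh2R172K. The balance of the directions depended on the setting. Quantile normalization gave 881 higher and 1102 lower, and library weights 1306 higher and 1484 lower. Without the number 4 libraries and Tet2KO library 2, an alternative chosen after seeing the data, 1579 were higher and 1458 lower. The listed genes lower in Idh2R172K belonged to several blood lineages. Of 23 erythroid genes 13 were called lower and 1 higher, of 24 granulocyte-monocyte genes 12 were lower, and of 20 lymphoid priming genes 9 were lower. Of 10 dendritic and MHC class II markers 7 were lower, and their median between Idh2R140Q and WT was 0.01. Stem cell genes were called in both directions, 5 higher and 2 lower of 28. Of 78 ribosomal protein genes 0 were called.

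Klf1 was at 45.6, 53.9, 56.5 and 52.8 TPM in Idh2R140Q and 7.22, 6.90, 9.20 and 7.65 in Idh2R172K. The groups were far apart, with a difference of -2.61 ± 0.12 (adjusted p = 4.1e-11 in limma), while Idh2R140Q lay within the range of WT but for its lowest library. Car1, a carbonic anhydrase of red cell precursors, was at 422 ± 37.9 TPM (SD, n = 4) in Idh2R140Q, 499 ± 81.0 in WT and 25.1 ± 10.7 in Idh2R172K. Padi4, which converts arginine in histones to citrulline, was at 38.2 ± 6.31, 50.1 ± 3.77 and 1.27 ± 0.331 TPM. Its 4 Idh2R140Q libraries were all below WT, by 0.39 on the log2 scale (-0.39, adjusted p = 0.998 in limma), and the step to Idh2R172K was -4.11 ± 0.17 (adjusted p = 3.7e-11). Ccl3, an inflammatory chemokine, went from 73.5 ± 51.9 TPM in Idh2R140Q to 2.22 ± 1.58, Chdh from 28.1 ± 8.55 to 0.725 ± 0.270, and Fbp1, of gluconeogenesis, from 41.3 ± 7.09 to between 1.25 and 2.48.

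The 5 named genes with the largest rise from Idh2R140Q to Idh2R172K differed from WT by -0.09 to 0.27 in Idh2R140Q, none of them called. Perp, a membrane protein of desmosomes and a p53 target, was at 6.17 ± 0.654 TPM in Idh2R140Q, 6.03 ± 0.613 in WT and 94.8 ± 10.4 in Idh2R172K. The difference between the alleles was 3.74 ± 0.17 (SE, adjusted p = 7.2e-11 in limma), and that between Idh2R140Q and WT 0.03 (-0.34 to 0.40). Cd200r4 was at 1.97 ± 0.398 and 22.4 ± 3.87 TPM in the alleles, Smagp at 3.49 ± 0.717 and 29.6 ± 4.41, Fhdc1 at 2.75 ± 0.633 and 23.2 ± 6.28, and Gpc3, a glypican, at 10.9 ± 4.19 and 70.1 ± 13.5. Zfp710, next to Idh2, was higher in Idh2R172K than in Idh2R140Q by 1.01 (adjusted p = 0.00283 in limma). Of all genes 10.7% were called in this comparison. Idh2R140Q and Idh2R172K differ in the altered residue and also in the levels of Idh2 and Zfp710 RNA, and these cannot be told apart.

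Between Idh1R132H and Idh2R140Q 1 of 13992 genes was called (0.00715%), and 274 (1.96%) had an unadjusted p under 0.05. The called gene was Fhl2, a LIM-domain cofactor, at 2.49, 1.92, 1.65 and 2.85 TPM in Idh2R140Q and 6.32, 7.80, 6.41 and 8.17 in Idh1R132H. The groups did not overlap, and Idh2R140Q lay in the range of WT (1.12 to 2.84) but for 1 library. The difference was 1.35 ± 0.18 (adjusted p = 0.00954 in limma). It was not called in the fit of these 2 groups only (adjusted p = 0.126), nor without Idh2R140Q library 2 (0.0726), without library 3 (0.0718) or without the libraries numbered 4 (0.0845). The difference itself was 1.26 to 1.38 in these 4 fits. Without Idh2R140Q library 1 there were 3 calls, Fhl2, Ifi27 and Hddc3. The 20 lymphoid priming genes had a median difference of -0.28 between Idh1R132H and Idh2R140Q, beside -0.04 for all genes, with 0 called. This comparison shares the Idh2R140Q libraries with the one against WT.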

How the data were processed

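RNA-seq libraries were made from LSK cells, 4 pools in each of 5 groups (20 libraries). Per the submitters' processing notes the authors used Trim Galore, STAR, featureCounts and mm10, with versions, annotation and strand setting not given in the sources used here. The deposited unit is TPM per Ensembl gene, 1 table of 46078 genes, and 0 columns belonged to no sample. The Idh2R140Q columns carry a prefix that names Idh1 and were assigned by the mutation 140Q. Gene names, coordinates and lengths come from GENCODE M21 (45229 IDs found, 849 not).

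Read counts were rebuilt from TPM times exon length and kept for 42808 genes. These had over 90% of their values between 0 and 60 reads whole within 0.1 read, or no such value. Of values under 30 reads, 90.0 to 91.0% were whole within 0.1 read in each library. Total depths, 35.17 to 45.04 M reads in the 20 libraries, were summed over all genes with an exon length, kept or not. For Hapln3 the reads are those at the smallest length, 1433 bases, at which its values are whole within 0.01 in every library. Its annotated exons cover 3513 bases.

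The test was limma 3.58.1 (R 4.3.3) with a variance trend on log2(TPM + 1), 1 fit of all 20 libraries, 2-sided, with Benjamini-Hochberg adjustment over 13992 genes, those that averaged 1 TPM or more in the 8 libraries. A gene was called at an adjusted p under 0.05. Differences are on the log2(TPM + 1) scale, which understates the change of low genes. Direct contrasts used the same fit and share the Idh2R140Q libraries. Same-numbered WT and Idh2R140Q libraries were not taken as pairs. Python 3.11.15, pandas 2.3.3, numpy 2.4.6 and matplotlib 3.10.9 were used for tables and figures.

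The members and the 34 gene lists were chosen with earlier results of these data known. Named genes are Idh1, Idh2 and Tet1 to Tet3, the 8 non-overlapping genes with the smallest p in each direction, members with the smallest p of each list, a fixed panel of lineage genes, genes within 1 Mb of Idh2 at an unadjusted p under 0.05 or with no overlap, and the largest called differences of the direct contrasts. Of the non-overlapping genes, 68 higher and 22 lower were small RNAs, pseudogenes, unnamed models, immunoglobulin segments or sex-linked and were left out of naming. Not every gene the rule names is printed, and some items are not reported here. Hapln3, Gm14248, Gm25911, Tmem87a, Wdfy1, 1700023H06Rik, Ngp, Fos, Rag2, Satb1, Zbtb16, D2hgdh, Tdg, Dnmt1, Uhrf1 and Zfp710 were chosen after their values were seen. The alternatives changed the pseudocount, filter, scaling, spread, blocks, covariates, count model and libraries.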

Additional observations from a re-analysis of the deposited data

Results flagged for a closer look

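Of 144 groups of 4 libraries checked, 9 held a library far from the other 3, and chance marks about 1 in 20 such groups. Slc35d3 was low in WT library 2, at 7.555 TPM against 10.2 to 10.7 in the others. Mpo was also low in WT library 2, at 2573 TPM against 3860 to 4042. Itga2b was high in WT library 4, at 133.1 TPM. In library 4 of Idh2R140Q the mean log2(TPM + 1) was high for dioxygenases that use 2-oxoglutarate (5.19), for immediate early and heat shock genes (6.52) and for p53 targets (4.9), and in WT library 4 for interferon response genes (5.17). In Idh2R140Q library 3 the mature neutrophil markers were high (4.69). Idh2R140Q library 2 was the deepest, with 45.04 M reads against 39.1 to 39.69 in the other 3.

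The difference from WT was not the same in the 2 Idh2 alleles for 1501 genes, and not the same in Idh1R132H and Idh2R140Q for 1 gene, by limma tests of the differences themselves.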

How the results depend on the processing

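Between Idh2R140Q and WT 0 genes were called under every alternative with a filter of 1 TPM or 5 TPM, and 2 with no filter. Genes at an unadjusted p under 0.05 (409) numbered 1114 with no filter, 158 at 5 TPM, 1291 with library weights and 262 to 785 when 1 library was left out, lowest without Idh2R140Q library 4 and highest without library 3. Without Tet2KO library 2, an alternative chosen after seeing the data, they numbered 658, and 1420 without the number 4 libraries as well. Idh2R172K against Idh2R140Q (1501 called) gave 915 at 5 TPM, 2790 with library weights, 2303 without Tet2KO library 2, 3037 without the number 4 libraries as well and at least 1230 (without Idh2R140Q library 3) when 1 library was left out. Its 2969 genes at an unadjusted p under 0.05 became 4716 with no filter, 4826 under the setting without both and 2505 to 3801 when 1 library was left out. Idh1R132H against Idh2R140Q (1 called) gave 2 with no filter, 0 at 5 TPM, 4 with library weights, 0 without the number 4 libraries and 0 to 3 when 1 library was left out. Its unadjusted count of 274 became 903, 119 and 1270 under the first 3 of these, 658 without the number 4 libraries and Tet2KO library 2, and 190 to 610 when 1 library was left out.

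The replicate block gave 682 genes at an unadjusted p under 0.05 and 0 called for Idh2R140Q against WT, and 430 for Idh1R132H against Idh2R140Q. Same-numbered WT and Idh2R140Q libraries correlated by 0.0973, 0.161, 0.203 and 0.447 in their deviations, and Idh2R140Q library 1 correlated best with WT library 2.

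Of the named genes 8 changed sign, none of them called. Idh2 was at -0.062 with median-of-ratios scaling, -0.024 in limma-voom and -0.051 to 0.122 when 1 library was left out. D2hgdh was at -0.014 with quantile normalization, and Ly6a at 0.004 with library weights. Mpo and Gata1 reached 0.037 and 0.016 without the number 4 libraries, with or without Tet2KO library 2, from lows of -0.366 and -0.145 when 1 library was left out. With libraries left out, Idh1 ranged from -0.018 to 0.178, Flt3 from -0.005 to 0.300, Ly6a from -0.116 to 0.021, Itga2b from -0.215 to 0.029 and D2hgdh from -0.042 to 0.249. The causes were not tested.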

Other observations

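Several genes split the libraries within groups, and they were chosen after their values were seen. Tmem87a, a Golgi membrane protein, was at 14.2 and 13.3 TPM in Idh2R140Q libraries 1 and 4 and at 4.34 and 3.54 in libraries 2 and 3. In the 16 libraries of the other groups it stood at 2.78 to 5.64. The non-coding gene 1700023H06Rik was at 22.8 and 22.6 TPM in Idh2R140Q libraries 1 and 2 and at 7.43 and 11.4 in libraries 3 and 4, with WT at 4.41 to 8.15.

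Wdfy1, an adaptor of Toll-like receptor signalling, was at 4.58, 20.2, 11.1 and 18.7 TPM in Idh2R140Q and at 19.8, 4.25, 3.75 and 9.81 in WT, so the order of the libraries differed between the groups. The annotated miRNA gene Gm25911 (chr1:167340369-167340424) was at 2031, 2076, 1836 and 1231 TPM in Idh2R140Q. In WT it was at 16.0 and 9.96 in libraries 1 and 2 and at 1931 and 1406 in libraries 3 and 4. In Idh1R132H it was at 1.45 to 16.4, and in Idh2R172K at 5.20, 1880, 10.3 and 1351. The gene has 56 bases.

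Hbb-bs, an adult beta globin, was at 9.16, 7.51, 11.4 and 9.22 TPM in WT and 19.4, 13.5, 11.0 and 12.9 in Idh2R140Q. Library 3 of Idh2R140Q lay within the WT range. The difference was 0.55 (0.11 to 0.98, adjusted p = 0.998 in limma), and 6 of 9 tested red cell markers were above 0.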
